A study of Mus musculus with 4 samples.

Results

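The unfolded protein response genes and the folding genes of the endoplasmic reticulum were followed across mouse islet cells sorted as insulin-positive. The 38 genes were chosen by symbol, and each matched 1 row among the 39170 rows of the expression table. They fall into 4 arms. The first arm holds 18 genes of protein entry, chaperoning and disulfide formation, and the second holds 9 genes of endoplasmic reticulum associated degradation. The third arm holds 4 genes, the stress sensors IRE1 and ATF6 with the factor Xbp1 and the regulator Wfs1. The last arm is the PERK-ATF4-CHOP arm with 7 genes.

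Total RNA was sequenced from cells of MIP-GFP C57BL/6 mice, all male and 6 to 8 weeks old, in which the mouse insulin 1 promoter drives green fluorescent protein. Flow sorting on Glut2, a glucose transporter whose gene is Slc2a2, gave a low gate (Glut2L) and a high gate (Glut2H). The submitters describe the low gate as rich in multipotent progenitors and name Glut2 as the route by which streptozocin (STZ), a toxin of beta cells, enters them. The groups are Glut2L after STZ, Glut2L control, Glut2H after STZ and Glut2H control. STZ mice received 200 mg/kg of STZ by intraperitoneal injection in citrate buffer and were diabetic 4 days later, and control mice received vehicle. All groups carry the same transgene. The labels give 3 mice per group, 1 library stands for each group, and pooling of mice is neither stated nor denied in the sources used here. There is no replicate in any group, so no test was run and the comparisons describe these 4 libraries alone.

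Proteins bound for secretion enter the endoplasmic reticulum through the Sec61 channel, where chaperones of the Hsp70 and Hsp90 families, lectin chaperones and protein disulfide isomerases fold them. Proteins that fail to fold are sent back to the cytosol by the Hrd1 complex and degraded. The sensors IRE1, ATF6 and PERK answer a load of unfolded protein: IRE1 splices the Xbp1 transcript and ATF6 is cleaved, and both raise chaperone and degradation genes, while PERK slows translation and favours that of Atf4, whose targets include the CHOP gene Ddit3. Beta cells are known to depend on this machinery because proinsulin carries disulfide bonds and is made in bulk. Splicing, cleavage and translation are not seen in the values used here, which are gene levels.

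Levels are in FPKM as deposited, that is, fragments per kilobase of transcript after scaling for depth, so that levels can be set side by side between genes. Differences are log2 of FPKM plus 1 in the first group minus the second, a scale that understates differences of low genes, and "higher" or "lower" with a count means at least 2-fold on it. Read numbers are unknown, so no counting interval can be given. All 38 genes reached 1 FPKM with an OK status in every library, and 37 reached 5 FPKM in every library.

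The gate labels went against the Slc2a2 transcript, which stood at 33.7 FPKM in Glut2L STZ and 41.0 FPKM in Glut2L control, against 10.8 FPKM in Glut2H STZ and 8.74 FPKM in Glut2H control. The libraries are therefore called by their labels, and each direction between gates is one between libraries so labelled. A short locus, Gm20594, took 4.15% of the summed FPKM in Glut2L STZ and 3.86% in Glut2L control, against 68.5% in Glut2H STZ and 61.0% in Glut2H control. Of 17 beta cell markers, 15 in STZ mice and 16 in control mice were higher in the library labelled Glut2L, with median log2 differences of 1.55 in STZ mice and 1.66 in control mice. Over all genes 22.9% were higher in STZ mice and 19.7% in control mice. All 10 leukocyte markers, 6 endothelial markers and 7 stromal markers were lower in the library labelled Glut2L in both STZ and control mice. Over all genes 17.8% were lower in STZ mice and 18.5% in control mice. The leukocyte markers summed to 3347 FPKM in Glut2H STZ and 3070 FPKM in Glut2H control. In Glut2L STZ and Glut2L control they summed to 109 and 82.4 FPKM. Fewer cells of a type and less RNA per cell cannot be told apart in these bulk libraries.

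Promoters of the 38 genes were read for the letters that the factors downstream of the sensors are known to bind. The windows run from 250 bases before to 50 bases after each RefSeq gene start on GRCm38.p6, which can differ from the GENCODE start given with a gene, and 35 windows of 34 members were found. Manf, Hyou1, Derl1 and Atf6 were not among them. The endoplasmic reticulum stress element (ERSE, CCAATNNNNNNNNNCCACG, searched on both strands), which ATF6 binds with NF-Y, was in 10 of 35 member windows (28.6%) and in 39 of all 32851 windows (0.119%). The Hspa5 promoter is shown first because Hspa5, which encodes the chaperone BiP, is the classical target of this element. The 250 bases before its start are given 5′ to 3′ on the plus strand, with the conserved letters of the ERSE in capitals.

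Hspa5 (chr2:34771840-34772089): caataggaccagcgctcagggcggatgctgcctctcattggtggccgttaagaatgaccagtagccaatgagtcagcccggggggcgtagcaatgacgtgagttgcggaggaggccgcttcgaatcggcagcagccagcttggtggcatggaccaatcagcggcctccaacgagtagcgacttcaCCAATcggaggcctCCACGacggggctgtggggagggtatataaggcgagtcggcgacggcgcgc

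The matches of all 10 genes are given below with 5 bases on each side, on the strand of the gene, so that they can be compared letter by letter. Capitals mark the fixed letters of the ERSE. A match on the opposite strand reads CGTGG before ATTGG.

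Hspa5 (chr2:34772020-34772048, plus strand): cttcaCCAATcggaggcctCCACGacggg
Hsp90b1 (chr10:86705633-86705661, minus strand): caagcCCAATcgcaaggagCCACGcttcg
Hsp90b1 (chr10:86705528-86705556, minus strand): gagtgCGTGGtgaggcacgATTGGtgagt
Calr (chr8:84847070-84847098, minus strand): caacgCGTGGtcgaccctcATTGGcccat
Canx (chr11:50325795-50325823, minus strand): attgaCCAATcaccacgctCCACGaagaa
Pdia6 (chr12:17266486-17266514, plus strand): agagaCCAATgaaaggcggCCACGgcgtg
Dnajc3 (chr14:118937822-118937850, plus strand): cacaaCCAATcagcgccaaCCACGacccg
Creld2 (chr15:88819515-88819543, plus strand): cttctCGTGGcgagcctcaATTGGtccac
Ero1lb (chr13:12565677-12565705, plus strand): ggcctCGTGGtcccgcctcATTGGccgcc
Derl3 (chr10:75893237-75893265, plus strand): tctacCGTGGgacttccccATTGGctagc
Syvn1 (chr19:6046527-6046555, plus strand): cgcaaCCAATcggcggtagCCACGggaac

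Of these 10 genes, 8 are folding genes and 2, Derl3 and Syvn1, are degradation genes, and Hsp90b1 held 2 matches. No gene of the sensor arm or of the PERK-ATF4-CHOP arm had one in the window. The core of the unfolded protein response element (TGACGTGG, both strands), which spliced XBP1 is known to bind and which shares CGTGG with the ERSE of the opposite strand, was in 0 member windows and in 222 of all windows (0.676%). The core of the element bound by ATF4 with C/EBP factors (TGATGCAA, both strands) was in 2 member windows and in 294 of all windows (0.895%). These were the windows of Chac1, an ATF4 target, and of Herpud1, and both matches lay on the opposite strand, as shown here in capitals with 5 bases on each side.

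Chac1 (chr2:119351044-119351061, plus strand): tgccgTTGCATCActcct
Herpud1 (chr8:94386312-94386329, plus strand): gcgggTTGCATCAgcccg

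A match describes letters in a window and shows no binding, and a window without one says nothing about the factor.

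**Figure D1:**
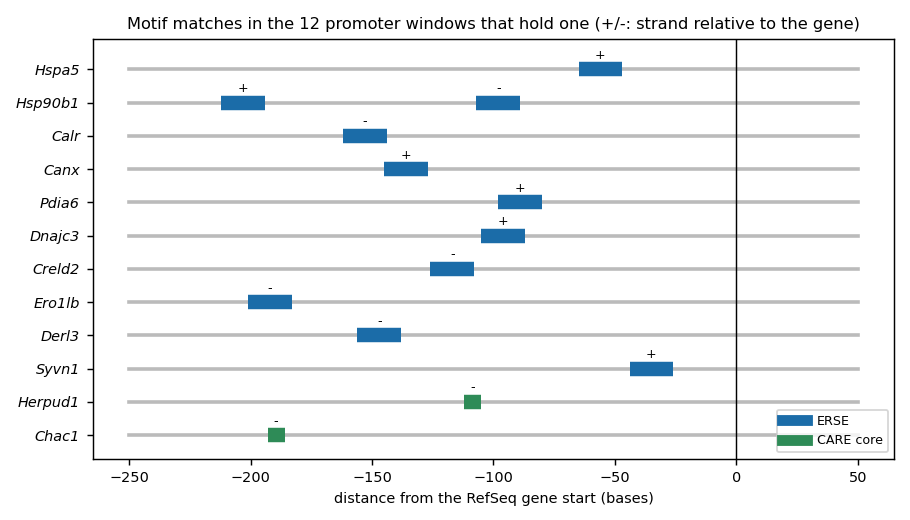
Positions of the ERSE (blue) and of the ATF4 element core (green) in the 12 member promoter windows that hold a match, in bases from the RefSeq gene start, with the strand relative to the gene marked above each box. All 11 ERSE matches lie before the gene start, from position -212 to position -26.

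Hspa5, Hsp90b1 and P4hb had the highest levels of the 38 genes in every library. Hspa5 (ENSMUSG00000026864, chromosome 2, 34771970 to 34777547, plus strand of GRCm38) stood at 1385 FPKM in Glut2L STZ and 1987 FPKM in Glut2L control, against 609 FPKM in Glut2H STZ and 519 FPKM in Glut2H control. Hsp90b1, which encodes the Hsp90 chaperone GRP94 (ENSMUSG00000020048, chromosome 10, 86690209 to 86705509, minus strand), stood at 1333 FPKM in Glut2L STZ and 1704 FPKM in Glut2L control, against 433 FPKM in Glut2H STZ and 532 FPKM in Glut2H control. P4hb, which encodes the founding protein disulfide isomerase, stood at 1195 FPKM in Glut2L STZ and 1469 FPKM in Glut2L control, against 712 FPKM in Glut2H STZ and 589.6 FPKM in Glut2H control. Ranked among all rows of the table, Hspa5 was at place 71 in Glut2L STZ, 44 in Glut2L control, 145 in Glut2H STZ and 154 in Glut2H control. At the other end, Derl3 was the lowest of the 38 in Glut2L STZ, Glut2H STZ and Glut2H control, with 9.11, 1.59 and 3.77 FPKM in those libraries. In Glut2L control the lowest was Atf6.

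**Figure D2:**
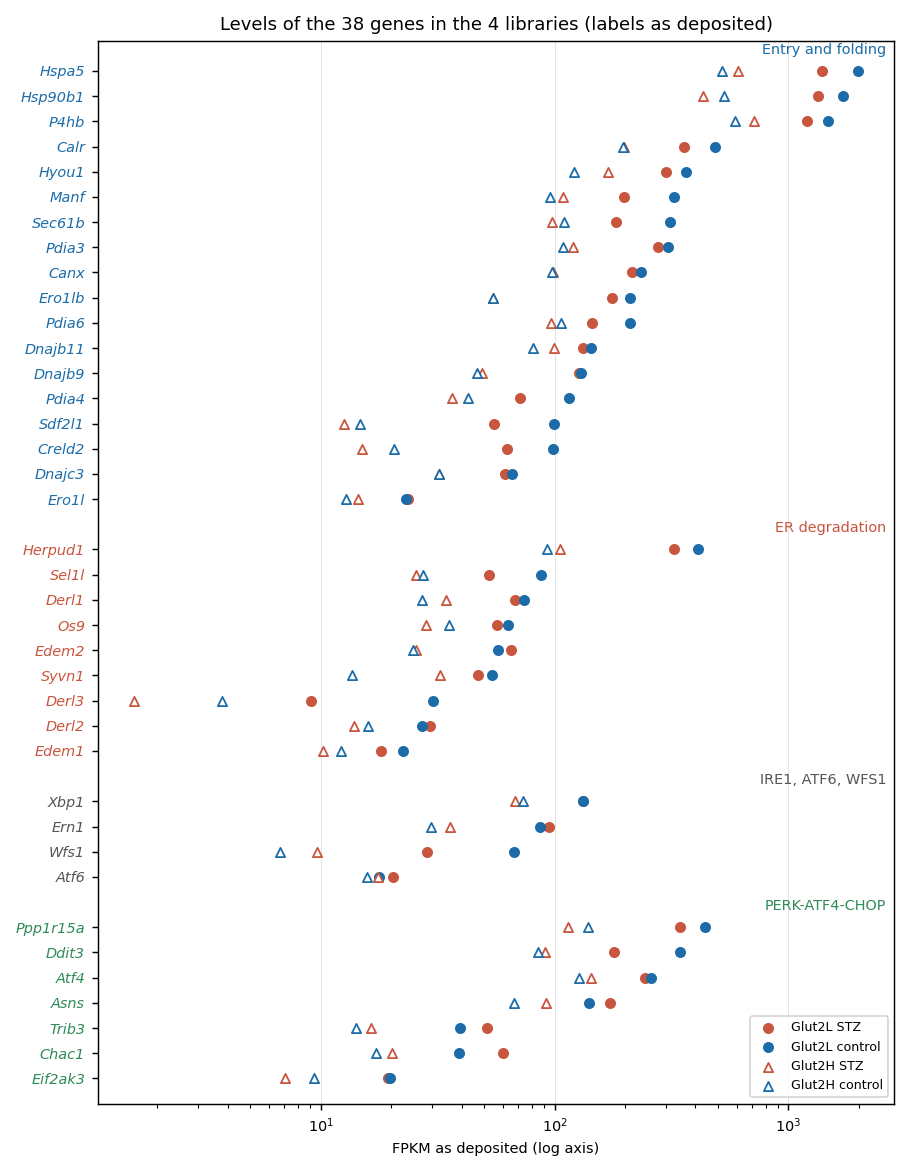
FPKM of the 38 genes in the 4 libraries on a log axis, by arm, with circles for the libraries labelled Glut2L, triangles for those labelled Glut2H, red for STZ and blue for control. In all 38 rows both circles lie to the right of both triangles, and in 29 rows the blue circle (Glut2L control) is the highest value.

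Both libraries labelled Glut2L lay above both libraries labelled Glut2H for all 38 genes, a pattern shown by 32.8% of 17732 genes with at least 1 FPKM in some library. The highest value was in Glut2L control for 29 genes and in Glut2L STZ for 9, and in no gene was it in a library labelled Glut2H. The lowest value was in Glut2H STZ for 15 genes and in Glut2H control for 23.

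The comparison of the gates asks how cells sorted as low and as high in Glut2 differ. In STZ mice, 19 of the 38 genes stood higher in Glut2L than in Glut2H as labelled and 0 lower, where 22.9% of all 15839 genes measured were higher and 17.8% were lower. The median difference of the 38 genes was 0.997, against 0.23 over all genes. In control mice 30 of the 38 were higher and 0 were lower, with a background of 19.7% higher and 18.5% lower among 16234 genes, and the median was 1.42 against 0.15 over all genes. The direction and these counts rest on the scaling. With the median of the beta cell markers other than Ins1, Ins2 and Slc2a2 set to 0, 0 genes were higher in STZ mice and 3 in control mice, and the median of the 38 genes was -0.53 in STZ mice and -0.21 in control mice. On that scale 3.13% of all genes were higher and 61.1% lower in STZ mice, with a median of -1.29. In control mice 2.28% of all genes were higher and 69.1% lower, with a median of -1.49. The median of the 38 genes thus stayed above that of all genes. As deposited, the median gap of all 17 beta cell markers was 1.55 in STZ mice and 1.66 in control mice, and what part of the gap comes with the number of beta cells in each sort was not tested. Rescaling to an equal sum over all rows, Gm20594 included, moved the count the other way, to 38 genes in STZ mice. On that scale 57.5% of all genes were higher in STZ mice. Of the calls over all genes, 56.4% in STZ mice and 51.6% in control mice were in the higher direction as deposited. With an equal sum over all rows the share was 85.1% in STZ mice and 78.0% in control mice, and with the median of all genes at 0 it was 43.1% in STZ mice and 43.0% in control mice.

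In the folding arm, 8 of 18 genes in STZ mice (median 0.93) and 15 of 18 in control mice (median 1.47) were higher in the Glut2L-labelled library. The shares of all genes that were higher were 22.9% in STZ mice and 19.7% in control mice. The widest gaps of the arm were those of Sdf2l1 and Creld2. Sdf2l1, a partner of the co-chaperone ERdj3 (ENSMUSG00000022769, chromosome 16, 17130138 to 17132383, minus strand), stood at 55.2 FPKM in Glut2L STZ and 99.7 FPKM in Glut2L control, against 12.6 FPKM in Glut2H STZ and 14.8 FPKM in Glut2H control, a difference of 2.05 in STZ mice and 2.67 in control mice. Creld2, a stress-inducible protein of the reticulum, stood at 62.5 FPKM in Glut2L STZ and 98.7 FPKM in Glut2L control, against 15.1 FPKM in Glut2H STZ and 20.5 FPKM in Glut2H control, which gave 1.98 in STZ mice and 2.21 in control mice. The deposited intervals of both genes were apart between the gates in control mice. For Sdf2l1 they ran from 41.5 to 158 FPKM in Glut2L control and from 2.84 to 26.8 FPKM in Glut2H control, and for Creld2 from 43.4 to 154 FPKM in Glut2L control and from 5.32 to 35.7 FPKM in Glut2H control. Of the 38 genes, 4 had intervals apart between the gates in control mice and 0 in STZ mice, and the others in control mice were Herpud1 and Derl3. No share over all genes is given for intervals apart, here or below, so these counts cannot be read as many or few.

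Among the Hsp70 and Hsp90 chaperones the gap was 1.18 in STZ mice and 1.93 in control mice for Hspa5, and 1.62 in STZ mice and 1.68 in control mice for Hsp90b1. Hyou1, a large Hsp70 relative that serves BiP as a nucleotide exchange factor, stood at 299 FPKM in Glut2L STZ and 364 FPKM in Glut2L control, against 169 FPKM in Glut2H STZ and 121 FPKM in Glut2H control. Manf, which encodes a BiP-binding protein that is secreted under stress, stood at 198 FPKM in Glut2L STZ and 325 FPKM in Glut2L control, against 109 FPKM in Glut2H STZ and 95.9 FPKM in Glut2H control. The gap of both was narrower than that of Hspa5, at 0.82 in STZ mice and 1.58 in control mice for Hyou1 and at 0.86 in STZ mice and 1.75 in control mice for Manf. The deposited locus of Manf also holds Dcaf1 and Rbm15b, and the sources used here do not say whether the authors' counting used the strand of the reads.

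The co-chaperones of BiP with a J domain differed in size. Dnajb9, which encodes ERdj4 and is known to restrain IRE1, stood at 128 FPKM in Glut2L STZ and 129.6 FPKM in Glut2L control, against 48.7 FPKM in Glut2H STZ and 46.7 FPKM in Glut2H control. Dnajc3, which encodes p58IPK, stood at 61.4 FPKM in Glut2L STZ and 65.4 FPKM in Glut2L control, against 32.0 FPKM in Glut2H STZ and 32.0 FPKM in Glut2H control. Dnajb11, which encodes ERdj3, stood at 133 FPKM in Glut2L STZ and 143 FPKM in Glut2L control, against 99.0 FPKM in Glut2H STZ and 80.8 FPKM in Glut2H control. Dnajb9 had the widest gap of these, 1.37 in STZ mice and 1.45 in control mice. Dnajb11 had one of the narrowest of the arm, 0.42 in STZ mice and 0.81 in control mice, although it works with Sdf2l1, which had the widest.

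The lectin chaperones hold glycoproteins while they fold. Calr, encoding calreticulin, stood at 357 FPKM in Glut2L STZ and 483 FPKM in Glut2L control, against 199 FPKM in Glut2H STZ and 195 FPKM in Glut2H control, and Canx, encoding calnexin, stood at 215 FPKM in Glut2L STZ and 234 FPKM in Glut2L control, against 98.6 FPKM in Glut2H STZ and 97.8 FPKM in Glut2H control. The gap of Calr was 0.84 in STZ mice, under 2-fold, and 1.30 in control mice, and that of Canx was 1.11 in STZ mice and 1.25 in control mice. Pdia3, encoding the isomerase ERp57 that works with both, stood at 276 FPKM in Glut2L STZ and 306 FPKM in Glut2L control, against 119 FPKM in Glut2H STZ and 108 FPKM in Glut2H control. Among the other disulfide isomerases, Pdia4 stood at 71.1 FPKM in Glut2L STZ and 115 FPKM in Glut2L control, against 36.5 FPKM in Glut2H STZ and 42.7 FPKM in Glut2H control and Pdia6 at 145 FPKM in Glut2L STZ and 210.0 FPKM in Glut2L control, against 96.2 FPKM in Glut2H STZ and 106 FPKM in Glut2H control. Pdia6 was just under 2-fold in control mice at 0.97, and Pdia4 was at 1.41 there.

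The pair of oxidases that recharge these isomerases was unequal. Ero1lb, known as the pancreas-rich form and as an enzyme of proinsulin folding, stood at 176 FPKM in Glut2L STZ and 210.5 FPKM in Glut2L control, against 54.3 FPKM in Glut2H STZ and 54.6 FPKM in Glut2H control. Ero1l, the broadly expressed form, stood at 23.6 FPKM in Glut2L STZ and 23.2 FPKM in Glut2L control, against 14.5 FPKM in Glut2H STZ and 12.9 FPKM in Glut2H control. Ero1lb was higher by 1.68 in STZ mice and 1.93 in control mice, while Ero1l differed by 0.67 in STZ mice and 0.80 in control mice. The ratio of Ero1lb to Ero1l, which no scaling of a library can change, was 7.48 in Glut2L STZ and 9.08 in Glut2L control, against 3.75 in Glut2H STZ and 4.25 in Glut2H control. Sec61b, a small subunit of the Sec61 channel, stood at 183 FPKM in Glut2L STZ and 312 FPKM in Glut2L control, against 97.6 FPKM in Glut2H STZ and 109 FPKM in Glut2H control. It was higher by 1.503 in control mice and differed by 0.90 in STZ mice.

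Summed over the folding arm, the level was 6297 FPKM in Glut2L STZ and 8277 FPKM in Glut2L control, against 2954 FPKM in Glut2H STZ and 2780 FPKM in Glut2H control. This was 1.54% and 1.71% of the summed FPKM of protein-coding genes other than Ins1, Ins2 and Gm20594 in Glut2L STZ and Glut2L control. In Glut2H STZ and Glut2H control it was 0.747% and 0.698%. Set against its main client, the order turned round. For each 1000 FPKM of Ins1 and Ins2 together, the arm had 32.0 FPKM in Glut2L STZ and 25.4 FPKM in Glut2L control, against 48.4 FPKM in Glut2H STZ and 41.9 FPKM in Glut2H control. Cell types other than beta cells also express these genes, and how much of the arm came from them in each library was not tested.

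In the degradation arm, 5 of 9 genes in STZ mice (median 1.01) and 6 of 9 in control mice (median 1.41) were higher in the Glut2L-labelled library. Beside these counts stand 22.9% of all genes in STZ mice and 19.7% in control mice. Herpud1, a scaffold of the Hrd1 complex (ENSMUSG00000031770, chromosome 8, 94386438 to 94395377, plus strand), stood at 323 FPKM in Glut2L STZ and 411 FPKM in Glut2L control, against 105 FPKM in Glut2H STZ and 93.1 FPKM in Glut2H control, and its gap was 1.61 in STZ mice and 2.13 in control mice. Its deposited intervals met almost exactly in control mice, from 149.3 to 673 FPKM in Glut2L control and from 36.6 to 149.0 FPKM in Glut2H control. Derl3, a derlin of the exit channel that is known to be rich in secretory cells (ENSMUSG00000009092, chromosome 10, 75893413 to 75895941, plus strand), stood at 9.11 FPKM in Glut2L STZ and 30.2 FPKM in Glut2L control, against 1.59 FPKM in Glut2H STZ and 3.77 FPKM in Glut2H control. Its gap, 1.96 in STZ mice and 2.71 in control mice, was the widest of the arm. Its relatives Derl1 and Derl2 had narrower gaps. Derl1 stood at 67.6 FPKM in Glut2L STZ and 73.8 FPKM in Glut2L control, against 34.4 FPKM in Glut2H STZ and 27.1 FPKM in Glut2H control, and Derl2 at 29.4 FPKM in Glut2L STZ and 27.2 FPKM in Glut2L control, against 13.9 FPKM in Glut2H STZ and 15.9 FPKM in Glut2H control. Both were above Derl3 in every library, except that Derl2 was below it in Glut2L control. Expressed as a ratio within each library, Derl3 was 0.135 of Derl1 in Glut2L STZ and 0.410 in Glut2L control, against 0.0463 in Glut2H STZ and 0.139 in Glut2H control.

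The ligase and its adaptor did not stand in the same relation in every library. Sel1l, the adaptor, stood at 52.7 FPKM in Glut2L STZ and 87.5 FPKM in Glut2L control, against 25.6 FPKM in Glut2H STZ and 27.5 FPKM in Glut2H control. Syvn1, which encodes the ligase Hrd1 itself (ENSMUSG00000024807, chromosome 19, 6046576 to 6053712, plus strand), stood at 46.8 FPKM in Glut2L STZ and 53.8 FPKM in Glut2L control, against 32.2 FPKM in Glut2H STZ and 13.6 FPKM in Glut2H control. In STZ mice the gap of Syvn1 was 0.52, the narrowest of the arm, and in control mice it was 1.91. The genes that mark and read the sugar of misfolded glycoproteins lay under or little above 2-fold. Edem1 stood at 18.2 FPKM in Glut2L STZ and 22.5 FPKM in Glut2L control, against 10.2 FPKM in Glut2H STZ and 12.2 FPKM in Glut2H control, Edem2 at 65.0 FPKM in Glut2L STZ and 57.01 FPKM in Glut2L control, against 25.5 FPKM in Glut2H STZ and 24.9 FPKM in Glut2H control and the lectin gene Os9 at 56.7 FPKM in Glut2L STZ and 63.2 FPKM in Glut2L control, against 28.2 FPKM in Glut2H STZ and 35.2 FPKM in Glut2H control. Of these, Edem2 was higher in both, by 1.31 in STZ mice and 1.16 in control mice.

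The sensor arm was uneven in control mice, where it ran from 0.17 to 3.14 with a median of 1.18, and in STZ mice the median was 1.17. Wfs1, which encodes wolframin, a membrane protein of the reticulum whose loss causes diabetes in Wolfram syndrome and which is known to restrain ATF6 (ENSMUSG00000039474, chromosome 5, 36966104 to 36989205, minus strand), stood at 28.4 FPKM in Glut2L STZ and 66.8 FPKM in Glut2L control, against 9.61 FPKM in Glut2H STZ and 6.68 FPKM in Glut2H control. This was the widest gap of all 38 genes in control mice, 3.14, against 1.47 in STZ mice. Ern1, which encodes IRE1, stood at 94.7 FPKM in Glut2L STZ and 86.5 FPKM in Glut2L control, against 35.7 FPKM in Glut2H STZ and 29.5 FPKM in Glut2H control, with gaps of 1.38 in STZ mice and 1.52 in control mice. Xbp1, its splicing target, stood at 133 FPKM in Glut2L STZ and 132 FPKM in Glut2L control, against 68.0 FPKM in Glut2H STZ and 73.5 FPKM in Glut2H control, and differed by 0.95 in STZ mice and 0.84 in control mice. Atf6 had the narrowest gap of all 38 genes in both, at 20.3 FPKM in Glut2L STZ and 17.8 FPKM in Glut2L control, against 17.6 FPKM in Glut2H STZ and 15.7 FPKM in Glut2H control, which gave 0.19 in STZ mice and 0.17 in control mice. Atf6 was thus close to the median of all genes, while Hspa5 and Hsp90b1, which ATF6 is known to act on, were above it.

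Of the 7 genes of the PERK-ATF4-CHOP arm, 4 in STZ mice (median 1.34) and all 7 in control mice (median 1.13) were higher in the Glut2L-labelled library. The background was again 22.9% of all genes in STZ mice and 19.7% in control mice. Eif2ak3, which encodes PERK, was the lowest in level and stood at 19.3 FPKM in Glut2L STZ and 19.8 FPKM in Glut2L control, against 7.01 FPKM in Glut2H STZ and 9.34 FPKM in Glut2H control. Atf4, the factor whose translation PERK favours, stood at 243 FPKM in Glut2L STZ and 259 FPKM in Glut2L control, against 143 FPKM in Glut2H STZ and 128 FPKM in Glut2H control. The gap of Eif2ak3 was 1.34 in STZ mice and 1.01 in control mice, and that of Atf4 was 0.76 in STZ mice and 1.01 in control mice. Ddit3, which encodes the death-promoting factor CHOP (ENSMUSG00000025408, chromosome 10, 127290774 to 127296288, plus strand), stood at 180.1 FPKM in Glut2L STZ and 345 FPKM in Glut2L control, against 91.3 FPKM in Glut2H STZ and 85.0 FPKM in Glut2H control, and its gap of 2.01 in control mice was the widest of the arm. In STZ mice it was 0.97. The deposited locus of Ddit3 also holds Mars, an aminoacyl-tRNA synthetase gene on the other strand, which stood at 82.2 FPKM in Glut2L STZ and 68.7 FPKM in Glut2L control, against 51.9 FPKM in Glut2H STZ and 49.4 FPKM in Glut2H control. GENCODE M21 has another protein-coding entry named Ddit3 in that locus, on the same strand.

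Downstream of these factors, Trib3, a pseudokinase induced by ATF4 and CHOP, stood at 51.5 FPKM in Glut2L STZ and 39.5 FPKM in Glut2L control, against 16.4 FPKM in Glut2H STZ and 14.1 FPKM in Glut2H control. Chac1, an enzyme that breaks down glutathione, stood at 60.3 FPKM in Glut2L STZ and 38.9 FPKM in Glut2L control, against 20.1 FPKM in Glut2H STZ and 17.2 FPKM in Glut2H control. Ppp1r15a, which encodes GADD34, the phosphatase subunit that lets translation resume, stood at 342 FPKM in Glut2L STZ and 439 FPKM in Glut2L control, against 114 FPKM in Glut2H STZ and 138 FPKM in Glut2H control, and Asns, which makes asparagine, at 172 FPKM in Glut2L STZ and 141 FPKM in Glut2L control, against 92.1 FPKM in Glut2H STZ and 67.2 FPKM in Glut2H control. Trib3 and Chac1 had wider gaps in STZ mice (1.59 and 1.54) than in control mice (1.43 and 1.13), unlike Ddit3. Ppp1r15a was at 1.57 in STZ mice and 1.66 in control mice. Its deposited locus also holds Nucb1, Dhdh, Tulp2 and Gm45808, of which Nucb1 stood at 222 FPKM in Glut2L STZ and 241 FPKM in Glut2L control, against 99.97 FPKM in Glut2H STZ and 116 FPKM in Glut2H control. Asns was at 0.89 in STZ mice and 1.06 in control mice.

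**Figure D3:**
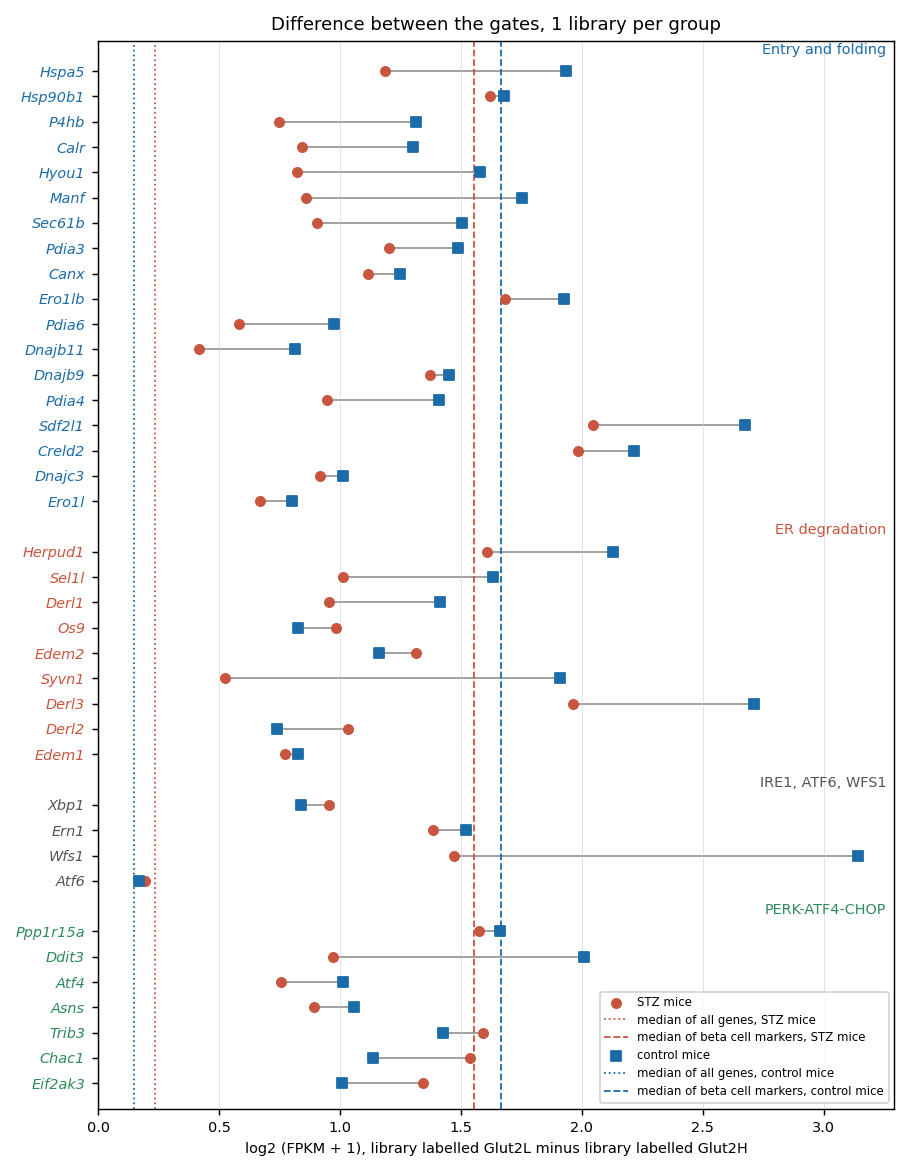
Difference between the library labelled Glut2L and the library labelled Glut2H for each of the 38 genes on the log2 (FPKM + 1) scale, with red circles for STZ mice and blue squares for control mice. Dotted lines mark the median of all genes (0.23 in STZ mice, 0.15 in control mice) and dashed lines the median of 17 beta cell markers (1.55 in STZ mice, 1.66 in control mice). All points lie above 0, and Wfs1, Syvn1 and Ddit3 have long gaps between the circle and the square.

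With the beta cell markers set to 0, the genes that still stood higher by at least 2-fold in control mice were Wfs1 at 1.51, Derl3 at 1.08 and Sdf2l1 at 1.04. The lowest there was Atf6, at -1.33 in STZ mice and -1.46 in control mice. On that scale 9 of the 38 genes were above 0 and 29 below 0 in STZ mice, and 13 were above 0 and 25 below 0 in control mice. All genes lay lower still, with medians of -1.29 in STZ mice and -1.49 in control mice. Of them, 61.1% in STZ mice and 69.1% in control mice were at least 2-fold lower. By arm of the 38, 6 of 18 folding genes, 4 of 9 degradation genes, 1 of 4 sensor genes and 2 of 7 genes of the PERK-ATF4-CHOP arm were above 0 in control mice.

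The STZ comparison asks how the cells found in each gate after the toxin differ from those of control mice. After STZ in Glut2L, 0 of the 38 genes were higher and 2 were lower, Derl3 and Wfs1, with a background of 10.2% higher and 11.1% lower among 15602 genes. The count of called genes was thus below the background, but most genes lay on one side: 29 of 38 were below 0, against 49.7% of all genes, with a median of -0.22 against 0.00 over all genes. After STZ in Glut2H, 1 gene was higher, Syvn1, and 0 were lower, with a background of 9.62% higher and 13.8% lower among 15558 genes. There 23 of 38 were above 0, and the median was 0.05 against -0.07 over all genes. These calls depend on the settings: with deposited intervals that do not overlap also required, none of the 3 was left. With an equal sum over protein-coding genes other than Ins1, Ins2 and Gm20594, Wfs1 was at -0.96 in Glut2L and under 2-fold, and with an equal sum over all rows Syvn1 was at 0.96 in Glut2H and under 2-fold. The median was -0.33 for folding, -0.20 for degradation, 0.07 for the sensor arm and -0.03 for the PERK-ATF4-CHOP arm, and in Glut2H it was 0.02, -0.10, 0.21 and 0.17 in the same order of arms.

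For 17 of 18 folding genes the value was below 0 after STZ in Glut2L, from -0.84 for Sdf2l1 to -0.02 for Dnajb9, and 7 were below 0 by 0.5 or more. These were Sdf2l1 with 55.2 FPKM after STZ and 99.7 FPKM in control (-0.84), Sec61b with 183 FPKM after STZ and 312 FPKM in control (-0.76) and Manf with 198 FPKM after STZ and 325 FPKM in control (-0.71). Pdia4 had 71.1 FPKM after STZ and 115 FPKM in control (-0.69) and Creld2 had 62.5 FPKM after STZ and 98.7 FPKM in control (-0.65). Pdia6 had 145 FPKM after STZ and 210.0 FPKM in control (-0.54) and Hspa5 had 1385 FPKM after STZ and 1987 FPKM in control (-0.52). Dnajb9, Dnajc3, Dnajb11, Canx and Pdia3 stayed within 0.15 of 0, and Ero1l alone was above 0, with 23.6 FPKM after STZ and 23.2 FPKM in control (0.03). Hsp90b1 was at -0.35, Calr at -0.43, P4hb at -0.30, Hyou1 at -0.28 and Ero1lb at -0.25. None of the 18 differed 2-fold.

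The folding genes did not do the same in the library labelled Glut2H, where all 18 lay within 0.5 of 0 and 11 were above 0. The highest there were Hyou1 with 169 FPKM after STZ and 121 FPKM in control (0.47), Dnajb11 with 99.0 FPKM after STZ and 80.8 FPKM in control (0.29) and P4hb with 712 FPKM after STZ and 589.6 FPKM in control (0.27). The lowest were Creld2 with 15.1 FPKM after STZ and 20.5 FPKM in control (-0.42), Hsp90b1 with 433 FPKM after STZ and 532 FPKM in control (-0.30) and Pdia4 with 36.5 FPKM after STZ and 42.7 FPKM in control (-0.22). Hspa5 was at 0.23, so that BiP and GRP94 had opposite signs in this gate.

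Of the degradation genes in the library labelled Glut2L, Derl3 was lower after STZ, with 9.11 FPKM after STZ and 30.2 FPKM in control (-1.63), the largest STZ difference of the 38 genes. Sel1l came next with 52.7 FPKM after STZ and 87.5 FPKM in control (-0.72), and Herpud1 had 323 FPKM after STZ and 411 FPKM in control (-0.35). Edem2 and Derl2 were above 0, Edem2 with 65.0 FPKM after STZ and 57.01 FPKM in control (0.19) and Derl2 with 29.4 FPKM after STZ and 27.2 FPKM in control (0.11). In the library labelled Glut2H, Derl3 had 1.59 FPKM after STZ and 3.77 FPKM in control (-0.88), below 0 as in Glut2L but at a very low level. Syvn1 was higher there after STZ, with 32.2 FPKM after STZ and 13.6 FPKM in control (1.19), and was the only gene of the 38 that reached 2-fold in that library. Its locus also holds Mrpl49, a gene of the mitochondrial ribosome on the other strand, which had 8.28 FPKM after STZ and 12.7 FPKM in control in the libraries labelled Glut2H (-0.57), the opposite direction. Derl1 had 34.4 FPKM after STZ and 27.1 FPKM in control (0.33) and Os9 had 28.2 FPKM after STZ and 35.2 FPKM in control (-0.31) in the libraries labelled Glut2H.

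Wfs1 stood apart within the sensor arm. In the libraries labelled Glut2L it had 28.4 FPKM after STZ and 66.8 FPKM in control (-1.21), and in those labelled Glut2H it had 9.61 FPKM after STZ and 6.68 FPKM in control (0.47). The other genes of the arm were close to 0 in the library labelled Glut2L, at 0.13 for Ern1, 0.18 for Atf6 and 0.01 for Xbp1. Their values in Glut2H were 0.27 for Ern1, 0.16 for Atf6 and -0.11 for Xbp1. None of these 3 genes differed with STZ by 0.3 or more in either gate.

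The PERK-ATF4-CHOP arm split after STZ in the library labelled Glut2L. Ddit3 had 180.1 FPKM after STZ and 345 FPKM in control (-0.93) and Ppp1r15a had 342 FPKM after STZ and 439 FPKM in control (-0.36). Chac1 had 60.3 FPKM after STZ and 38.9 FPKM in control (0.62), Trib3 had 51.5 FPKM after STZ and 39.5 FPKM in control (0.37) and Asns had 172 FPKM after STZ and 141 FPKM in control (0.28). CHOP and its known target Trib3 thus had opposite signs. Atf4 and Eif2ak3 were near 0, at -0.09 and -0.03. In Glut2H, Ddit3 alone of the genes in this split had the other sign. Asns had 92.1 FPKM after STZ and 67.2 FPKM in control (0.45), Trib3 was at 0.21, Chac1 at 0.21, Atf4 at 0.17 and Ddit3 at 0.10, all above 0. Ppp1r15a was at -0.27, below 0 as in Glut2L. Eif2ak3 was the lowest of the arm in Glut2H, with 7.01 FPKM after STZ and 9.34 FPKM in control (-0.37). With an equal sum over all rows Ddit3 was at -0.12 in Glut2H and Trib3 at -0.0030.

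Ratios within a library show the split without any scaling between libraries. Ddit3 was 0.742 of Atf4 in Glut2L STZ and 1.33 in Glut2L control, against 0.637 in Glut2H STZ and 0.665 in Glut2H control. Trib3 was 0.286 of Ddit3 in Glut2L STZ and 0.115 in Glut2L control, against 0.180 in Glut2H STZ and 0.166 in Glut2H control. Chac1 was 0.335 of Ddit3 in Glut2L STZ and 0.113 in Glut2L control, against 0.220 in Glut2H STZ and 0.202 in Glut2H control. Glut2L control was the library with the most Ddit3 for its Atf4, and Glut2L STZ the one with the most Trib3 and Chac1 for its Ddit3. Reads of Mars, if counted with Ddit3, would enter these ratios.

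**Figure D4:**
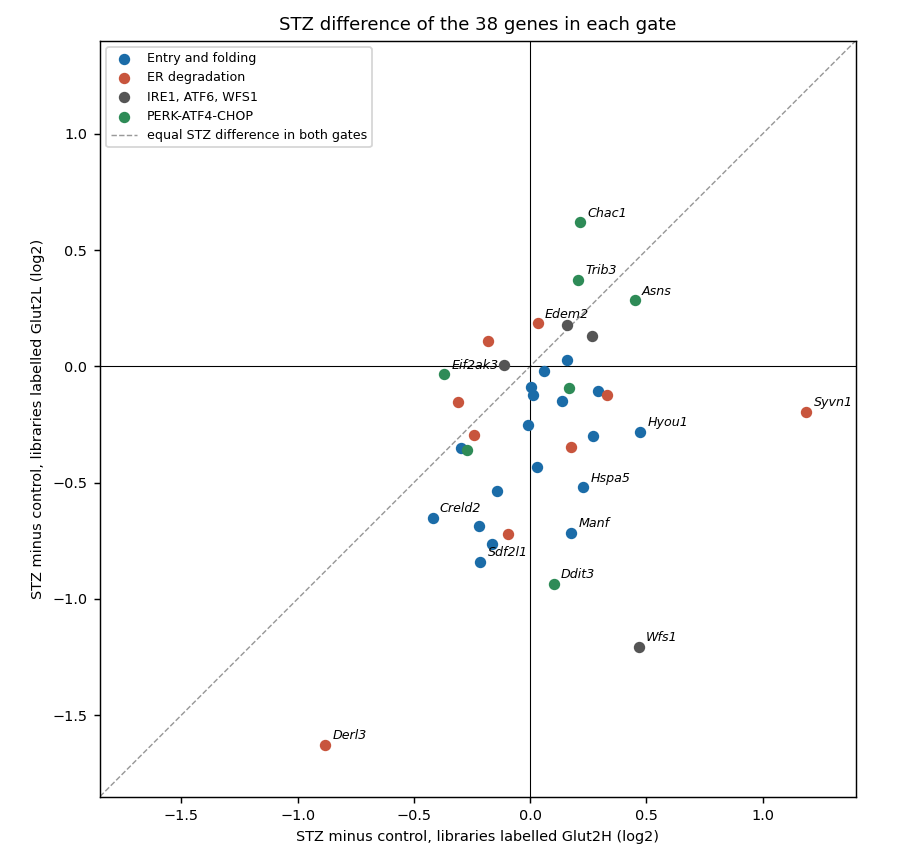
STZ minus control on the log2 (FPKM + 1) scale for each of the 38 genes, in the libraries labelled Glut2L (vertical axis) against those labelled Glut2H (horizontal axis), coloured by arm. The dashed line marks an equal difference in both. On the deposited scale all 18 blue points (entry and folding) lie below the dashed line, and Derl3, Wfs1, Ddit3 and Syvn1 lie farthest from 0.

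The STZ difference in Glut2L minus that in Glut2H was at least 2-fold higher for 0 of the 38 genes and at least 2-fold lower for 3, Wfs1 at -1.67, Syvn1 at -1.38 and Ddit3 at -1.04. Ddit3 was under 2-fold with an equal sum over all rows, at -0.73, without the highest rows, at -0.99, and over protein-coding genes other than Ins1, Ins2 and Gm20594, at -0.80. Over all 13427 genes measured in both comparisons, 14.6% were higher and 12.5% lower. Below 0 were 30 of the 38 genes, with a median of -0.25, against 47.5% of all genes and a median of 0.05. As deposited, all 18 folding genes were below 0, from -0.89 for Manf to -0.06 for Hsp90b1, with a median of -0.39. The median was -0.46 for degradation, -0.06 for the sensor arm and -0.09 for the PERK-ATF4-CHOP arm. In 16 of the 38 genes, 10 of them folding genes, STZ lay below control in Glut2L and above control in Glut2H. In 13 it lay below control in both, and in 7 above control in both.

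The signs in Glut2L depend on the scaling. With an equal sum over protein-coding genes other than Ins1, Ins2 and Gm20594, a scaling chosen after the data were seen, the median of the 38 genes was 0.020 after STZ in Glut2L, where that of all genes was 0.22, and that of the folding arm was -0.0785. The difference of the STZ effects was then -0.16 for the folding arm, against 0.25 for all genes. With an equal sum over all rows, this difference was above 0 for Hsp90b1, Pdia3, Canx, Dnajb9, Dnajc3, Creld2, Ero1l and Ero1lb. The other folding genes stayed below 0.

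Markers of exocrine cells moved with the STZ comparison in the libraries labelled Glut2L. The 16 acinar markers summed to 406 FPKM in Glut2L STZ and 3547 FPKM in Glut2L control, against 4693 FPKM in Glut2H STZ and 4491 FPKM in Glut2H control. Of the 14 that were measured in Glut2L, 13 were lower after STZ, with a median of -3.11, and in Glut2H the median was -0.01. Over all genes 11.1% were lower after STZ in Glut2L. The lipase cofactor gene Clps had 4.75 FPKM after STZ and 540.2 FPKM in control in Glut2L, and Ctrb1, a chymotrypsin precursor gene, had 158 FPKM after STZ and 801 FPKM in control. Bhlha15, which encodes the secretory cell factor Mist1, was not lower, with 7.56 FPKM (Glut2L STZ), 6.94 FPKM (Glut2L control), 3.81 FPKM (Glut2H STZ) and 3.83 FPKM (Glut2H control). Of the factors that define acinar cells, Ptf1a was listed at 0 in both libraries labelled Glut2L, and Rbpjl was listed at 0 in Glut2L STZ and stood at 0.145 FPKM in Glut2L control. Acinar cells are known for a high content of folding and degradation genes, Derl3 among them, and the part of acinar RNA in the STZ differences of Derl3 and the folding arm was not tested. The beta cell markers had a median of -0.01 after STZ in Glut2L and of -0.02 in Glut2H, with 0 of 17 at least 2-fold apart in either. Ins2 had 175841 FPKM after STZ and 294540.0 FPKM in control in Glut2L, a difference of -0.74, and 52596 FPKM after STZ and 57345 FPKM in control in Glut2H, a difference of -0.12. The plasma cell markers, another secretory type, summed to 3.29 FPKM in Glut2L STZ and 2.84 FPKM in Glut2L control, against 39.0 FPKM in Glut2H STZ and 26.5 FPKM in Glut2H control. In Glut2H STZ 4 of the 6 markers in the table were at 0, and the sum was that of Sdc1 at 33.2 FPKM and Prdm1 at 5.78 FPKM. In Glut2H control Sdc1 stood at 13.8 FPKM, Prdm1 at 6.71 FPKM and Igj at 4.17 FPKM.

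The genes with an ERSE in the promoter window were described apart from those without. After STZ in Glut2L, 0 of the 10 were above 0, with a median of -0.39, and 8 of the 24 members with a window and no ERSE were above 0, with a median of -0.13. Over all genes 50.3% were above 0 in that comparison. The signs depend on the scaling. With an equal sum over protein-coding genes other than Ins1, Ins2 and Gm20594, Canx (0.12), Dnajc3 (0.15) and Syvn1 (0.047) were above 0. Of the members with a window and no ERSE, Pdia3, Dnajb9, Dnajb11, Os9, Eif2ak3 and Atf4 also turned above 0 on that scale. Between the gates in STZ mice, 6 of the 10 and 13 of the 24 were higher in the Glut2L-labelled library, with medians of 1.15 and 1.02. Between the gates in control mice, 9 of the 10 and 18 of the 24 were higher, with medians of 1.79 and 1.36. Over all genes 22.9% were higher in STZ mice and 19.7% in control mice. Sdf2l1 and Wfs1, which in control mice had the widest gaps between the gates outside Derl3, had no ERSE in their windows. In STZ mice Wfs1, at 1.47, lay below Creld2, Ero1lb and Hsp90b1, which have one. The 10 are mostly chaperone genes, so this split is not separate from that by arm.

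Other genes of the same machinery were described from lists chosen by function, whose counts stand beside the 22.9% of all genes in STZ mice and 19.7% in control mice that were higher in the Glut2L-labelled library. Of 22 genes of signal recognition, the translocon and the signal peptidase, 10 were higher in the Glut2L-labelled library in STZ mice (median 0.83) and 12 in control mice (median 1.08), and 0 were lower in either. Srp9, a subunit of the signal recognition particle, was the highest at 1.77 in control mice, and Spcs1, of the signal peptidase, was at 1.76. Sec61a2, a second form of the channel, was the lowest at -0.61, followed by Srp19 at 0.15. After STZ in Glut2L, 0 of the 22 differed 2-fold and 17 were below 0, with a median of -0.11. Of 11 genes of the oligosaccharyltransferase, which adds sugar to entering proteins, 5 were higher in STZ mice (median 0.82) and 8 in control mice (median 1.404). Rpn2 at 1.93 and Dad1 at 1.62 were the highest in control mice, and Stt3b at 0.44 and Ost4 at 0.76 were the lowest. After STZ in Glut2L, 9 of the 11 were below 0 with a median of -0.33, close to that of the folding arm, and in Glut2H the median was 0.07.

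Of 21 further folding enzymes, 3 were higher in STZ mice (median 0.60) and 7 in control mice (median 0.76). Fkbp11, a prolyl isomerase rich in secretory cells, was the highest at 2.10 in control mice and the lowest after STZ in Glut2L at -0.76, with 28.6 FPKM in Glut2L STZ and 49.2 FPKM in Glut2L control, against 15.1 FPKM in Glut2H STZ and 10.8 FPKM in Glut2H control. Prdx4, a peroxiredoxin of the reticulum, was the lowest between the gates at -0.53 in control mice. The median of this list after STZ in Glut2L was -0.05. Of 18 further degradation genes measured, 4 (22.2%) were higher in each of STZ and control mice, a share near that of all genes, with medians of 0.29 in STZ mice and 0.66 in control mice, led in control mice by the mannosidase Man1b1 at 1.85 and the ligase Rnf5 at 1.29. Rnf5 was also lower after STZ in Glut2L, at -1.01. Of 14 genes of the COPII coat, which carries folded cargo out, 5 were higher in each of STZ and control mice, with medians of 0.79 in both, and 0 differed 2-fold after STZ in Glut2L. These lists thus had smaller medians between the gates than the folding and degradation arms did.

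In the further ATF4 program the counts were near those of all genes. Of 23 genes measured in STZ mice 6 were higher and 2 lower in the Glut2L-labelled library, with a median of 0.58, and of 22 in control mice 4 were higher and 2 lower, with a median of 0.68. The serine synthesis genes Psph and Phgdh were the highest in control mice, both at 1.52, and Slc7a11, a cystine carrier, was the lowest at -1.83, followed by Nupr1 at -1.39. After STZ the median of the list was 0.09 in Glut2L and 0.24 in Glut2H. Vldlr, a lipoprotein receptor, was the only one of the list to reach 2-fold in either, at 1.15 in Glut2L. The genes of the eIF2 kinases other than PERK, the phosphatase subunit, eIF2 alpha and eIF2B did not share the gap between the gates, with 0 of 10 higher and 1 lower in both STZ and control mice and medians of 0.02 in STZ mice and -0.40 in control mice. Eif2ak2, which encodes the kinase PKR, was the lowest in control mice at -1.10. Of the further stress transducers, 0 of 6 measured in STZ mice and 0 of 7 in control mice differed 2-fold, with medians of 0.33 in STZ mice and 0.47 in control mice, and Atf6b, the relative of Atf6, was at -0.88 in STZ mice and 0.47 in control mice. After STZ it was at -0.45 in Glut2L and 0.91 in Glut2H.

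**Figure D5:**
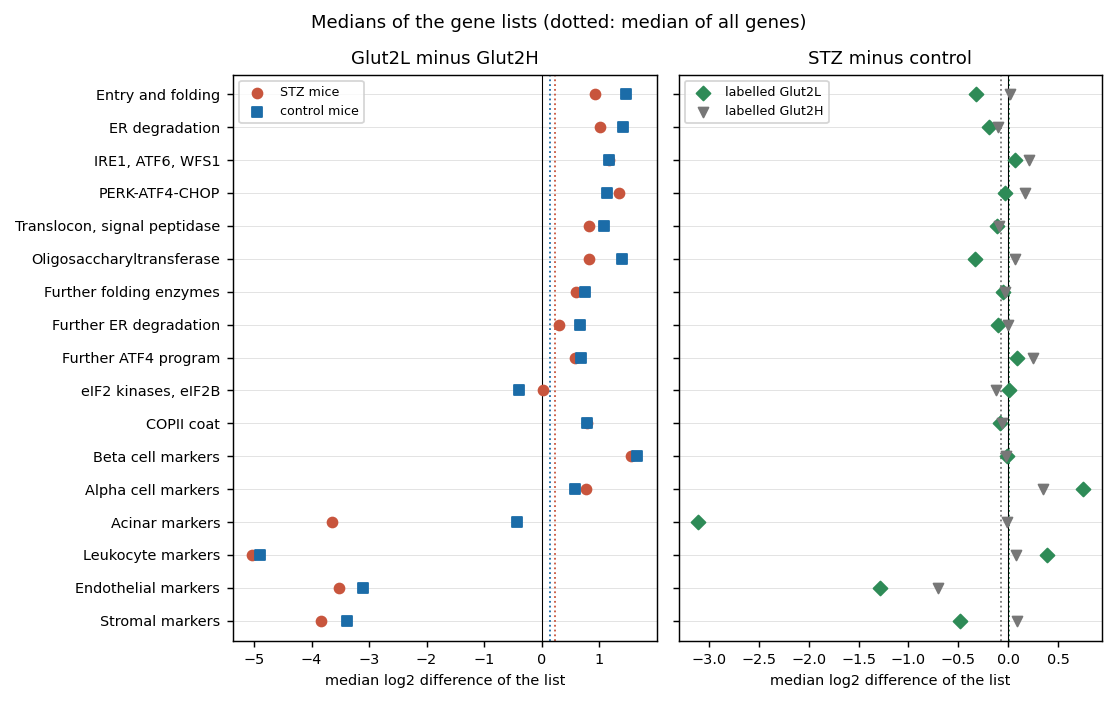
Median log2 difference of each gene list between the libraries labelled Glut2L and Glut2H (left panel, red circles for STZ mice, blue squares for control mice) and between STZ and control (right panel, green diamonds for Glut2L, grey triangles for Glut2H), with dotted lines for the median of all genes. The 4 arms lie right of 0 in the left panel beside the beta cell markers, and in the right panel the acinar markers of Glut2L lie farthest left at -3.11.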

How the data were processed

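RNA of 4 sorted populations was sequenced as stranded total RNA after removal of ribosomal RNA, per the labels' protocols, with 1 library per group. The deposited values are FPKM per gene with interval bounds and a status, per the file headers. Per the submitters' processing notes the tools were TopHat2, SAMtools and Cuffdiff on GRCm38 (mm10). Not given in the sources used here are their versions, the annotation, the scaling of libraries and the use of strand in counting. The tables of the single samples held the same FPKM as the series table (0 of 156680 values differed). Read depth is unknown: among 1541 genes below 0.5 FPKM in both libraries labelled Glut2L, the fullest bin of ratios held 39, so no step of 1 read was recovered. The deposited intervals had a median half-width of 70.9%, 68.5%, 78.5% and 72.6% of the members' FPKM in Glut2L STZ, Glut2L control, Glut2H STZ and Glut2H control, and their level is not stated.

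The 38 genes were matched by symbol, with positions from GENCODE M21. Each comparison took log2 of FPKM plus 1 over rows with at least 1 FPKM in either library and an OK status in both, and counted genes at least 2-fold apart. No test was run, since no group has a replicate. The members, arms and lists were chosen with earlier results of these data known. In each comparison the 3 highest and 3 lowest genes of each arm were to be named, and of each further list the 2 highest and 2 lowest that reached 5 FPKM; the further lists are named so mainly for the gates in control mice, and other genes were named after their values were seen. A list's count and median cover its measured genes. Markers of duct and alpha cells were also summed: 5 duct markers came to 130 FPKM in Glut2L STZ, 159 FPKM in Glut2L control, 204 FPKM in Glut2H STZ and 194 FPKM in Glut2H control, and 5 alpha cell markers, mostly Gcg, to 9962, 4211, 4370 and 2315 FPKM in the same libraries.

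Promoter windows were RefSeq's on GRCm38.p6, and protein sequences were not used here. Alternatives changed the pseudocount (0.1 or 5), the filter (none or 5 FPKM), the scaling (median of all genes or of beta cell markers at 0, equal sum over all rows, or over rows that are neither among the 20 highest nor mitochondrial nor shorter than 300 bp), the call (intervals that do not overlap) or the source (tables of the single samples). Chosen only after seeing the data were an equal sum over protein-coding genes without 3 genes, and leaving out 7 members whose locus holds another coding gene. The log2 comparison and its 2-fold calls were tested on simulated data. Python 3.11.15 and pandas 2.3.3 were used.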

Additional observations from a re-analysis of the deposited data

Results flagged for a closer look

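For 3 of the 38 genes the STZ comparison had opposite signs in the gates and the gates differed at least 2-fold in it; the difference was not tested, because each group is 1 library. Wfs1 had an STZ effect in Glut2L minus that in Glut2H of -1.67, from -1.21 in Glut2L and 0.47 in Glut2H. For Syvn1 it was -1.38, from -0.20 in Glut2L and 1.19 in Glut2H. For Ddit3 it was -1.04, from -0.93 in Glut2L and 0.10 in Glut2H. The opposite signs of Syvn1 and Ddit3 depended on the scaling. With an equal sum over all rows Ddit3 was at -0.12 in Glut2H, below 0 as in Glut2L, and its difference was under 2-fold. With an equal sum over protein-coding genes other than Ins1, Ins2 and Gm20594, Syvn1 was at 0.047 in Glut2L, above 0 as in Glut2H. Wfs1 has no other protein-coding gene in its deposited locus, whereas Syvn1 shares its locus with Mrpl49, and Ddit3 with Mars and another entry named Ddit3. Over all genes 14.6% were higher and 12.5% lower by at least 2-fold in the same difference.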

How the results depend on the processing

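Counts of the 38 genes and medians of the arms moved mostly with the scaling, and the sign of the arm medians and called gaps between the gates turned round in 1 alternative alone, the one that set the beta cell markers to 0. On that scale 0 genes were higher between the gates in STZ mice and 2 lower, with medians of -0.53 for all 38, -0.59 for folding, -0.51 for degradation, -0.36 for the sensor arm and -0.18 for PERK-ATF4-CHOP. In control mice 3 were higher and 1 lower, with medians of -0.21, -0.16, -0.22, -0.45 and -0.50 in the same order. The genes whose called gap turned were, in STZ mice, Hspa5 (-0.34), Pdia3 (-0.32), Canx (-0.41), Dnajb9 (-0.15), Sel1l (-0.51), Derl2 (-0.49), Edem2 (-0.21), Ern1 (-0.14), Wfs1 (-0.054) and Eif2ak3 (-0.18), and in control mice Pdia3 (-0.15), Pdia4 (-0.22), P4hb (-0.32), Calr (-0.33), Canx (-0.38), Dnajb9 (-0.18), Dnajc3 (-0.62), Hyou1 (-0.056), Sec61b (-0.13), Derl1 (-0.22), Edem2 (-0.47), Ern1 (-0.11), Eif2ak3 (-0.62), Atf4 (-0.62), Trib3 (-0.21), Chac1 (-0.50) and Asns (-0.58). The median of all genes was -1.29 in STZ mice and -1.49 in control mice on this scale. Of all genes, 3.13% were higher and 61.1% lower in STZ mice, and 2.28% higher and 69.1% lower in control mice. The following lists give all 38, folding, degradation, sensor and PERK-ATF4-CHOP in that order. With an equal sum over all rows the medians were 2.10, 2.04, 2.11, 2.29 and 2.38 between the gates in STZ mice (all genes 1.19), 2.22, 2.29, 2.22, 1.99 and 1.93 in control mice (all genes 0.85), -0.17, -0.20, -0.31, -0.0029 and -0.057 for STZ in Glut2H (all genes -0.25), and 0.048, -0.090, -0.16, 0.24 and 0.22 for the difference of the STZ effects (all genes 0.30); 38 genes were then higher between the gates in STZ mice and 0 higher after STZ in Glut2H. With an equal sum over protein-coding genes without Ins1, Ins2 and Gm20594 they were 1.14, 1.19, 1.14, 0.90 and 0.86 between the gates in control mice, 0.020, -0.0785, 0.047, 0.31 and 0.20 for STZ in Glut2L, where 1 gene was lower, and -0.016, -0.16, -0.22, 0.17 and 0.15 for the difference. With the median of all genes at 0 they were 0.76, 0.70, 0.78, 0.93 and 1.11 between the gates in STZ mice and 1.27, 1.32, 1.26, 1.03 and 0.99 in control mice. A pseudocount of 5 gave 0.89 for degradation, 1.05 for the sensor arm and 1.02 for PERK-ATF4-CHOP in STZ mice, and 1.30 for degradation and 1.02 for PERK-ATF4-CHOP in control mice; a pseudocount of 0.1 gave 1.45 for PERK-ATF4-CHOP in STZ mice and 1 gene lower after STZ in Glut2H, and a filter of 5 FPKM gave -0.26 for degradation in the difference. Requiring intervals that do not overlap left 0 genes higher between the gates in STZ mice, 4 in control mice, and 0 called for STZ in either gate, and leaving out the 7 members with another coding gene in the locus left 0 higher after STZ in Glut2H. The counts that require intervals apart have no share over all genes beside them. With an equal sum over all rows, 57.5% of all genes were higher between the gates in STZ mice. The cause of the other moves was not tested. Leaving out a replicate was not possible with 1 library per group. No paired analysis was possible because each group holds 1 library.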

Other observations

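The ERSE was also searched for outside the 38 genes. It was in 29 other windows, of 27 gene IDs, and 15 of these genes were in the expression table. Of the 10 measured in control mice, 2 were higher in the library labelled Glut2L and 2 were lower, with a median of 0.19, shares near the 19.7% higher and 18.5% lower among all genes. In the STZ comparison of Glut2L, 6 of 9 were above 0, with a median of 0.11, where 50.3% of all genes were above 0. The 4 highest in Glut2L control are given. Xlr3a stood at 26.5 FPKM in Glut2L STZ and 39.5 FPKM in Glut2L control, against 13.3 FPKM in Glut2H STZ and 9.84 FPKM in Glut2H control, a gap of 0.94 in STZ mice and 1.90 in control mice, with -0.56 after STZ in Glut2L. Hnrnpa3, which encodes an RNA-binding protein, stood at 29.5 FPKM in Glut2L STZ and 33.3 FPKM in Glut2L control, against 19.1 FPKM in Glut2H STZ and 26.3 FPKM in Glut2H control. Pan2 stood at 8.91 FPKM in Glut2L STZ and 5.80 FPKM in Glut2L control, against 2.95 FPKM in Glut2H STZ and 3.29 FPKM in Glut2H control. Alg12, a mannosyltransferase of the reticulum, stood at 5.37 FPKM in Glut2L STZ and 4.43 FPKM in Glut2L control, against 2.39 FPKM in Glut2H STZ and 4.22 FPKM in Glut2H control. These genes were named after their values were seen.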
